A study of Salmo salar with 64 samples.

Results

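Gonadotropins are the pituitary hormones that drive the gonads, and the 4 genes described here encode their subunits in Atlantic salmon: fshb (gene 100136362), lhb (gene 100380386), glha1 (gene 100286517) and glha2 (gene 100136440). They were picked by gene number from a count table of 81574 rows, in which each of the 4 had 1 row. No value entered that rule, but the choice was made with earlier results of these data known. Each had reads in all 64 libraries, and all 4 passed the low-count filter in every tissue. The study asked which genes change when a long day starts maturation in female salmon. Female broodstock about 3 years old, held as 1 group in tanks, were killed just before the long photoperiod began (T1) and at 3 later samplings, 2 weeks apart, under the long photoperiod (T2, T3 and T4). At each time point 4 fish gave brain, pituitary gland, ovary and liver, which makes 16 libraries per tissue. The fish carried no transgene or deletion. No fish were kept on short days alongside, so the long photoperiod, season and growth cannot be told apart in a difference between a later time point and T1.

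FSH (follicle-stimulating hormone) and LH (luteinizing hormone) are each a pair of 2 chains. The alpha chain is shared between them and with thyrotropin, and the beta chain, encoded by fshb or lhb, gives each hormone its own receptor. Both are made by gonadotropes of the anterior pituitary under gonadotropin-releasing hormone from the brain and feedback from gonadal steroids. In salmonid females FSH is known for the growth phase of the follicles and LH for final oocyte maturation and ovulation. In a bulk sample, fewer gonadotropes and less subunit RNA in each gonadotrope cannot be told apart. For the alpha genes the same holds for thyrotropes, since thyrotropin uses the alpha chain.

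Pituitary libraries held between 23002629 and 29039756 counts. Brain libraries held between 17461100 and 51858156, ovary libraries between 18564221 and 30566429, and liver libraries between 20638203 and 34934085. Levels are given as CPM (counts per 1000000 counts of the library), scaled by the trimmed mean of M values (TMM) within each tissue. No transcript lengths were used, so levels are compared between libraries for 1 gene and not between genes. A difference was called at an edgeR adjusted p below 0.05 over all genes tested, together with a log2 fold change beyond 1 in either direction. Within a tissue, the 4 libraries of a time point came from separate fish. The paper left its brain libraries out after finding the replicates inconsistent, which it put down to uneven sampling of brain regions. The pituitary libraries held the hormones of the other pituitary cell types at high levels, with prl, gh, smtlb, pomca and tshba together between 158958 and 251582 CPM.

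All 4 subunit genes were transcripts of the pituitary. Across the 16 pituitary libraries fshb averaged 1343 ± 1273 CPM, lhb 509.7 ± 337 CPM, glha1 3581 ± 1318 CPM and glha2 7129.5 ± 2718 CPM (SD, n = 16). Together they took between 0.472% and 2.47% of all counts in a pituitary library, with a median of 1.22%. The highest share of the 4 in any library of another tissue was 0.00405%, in the brain. In 1 edgeR fit of the 64 libraries the pituitary stood above the brain by a log2 fold change of 9.02 for fshb (SE 0.463), 9.30 for lhb (SE 0.326), 9.58 for glha1 (SE 0.254) and 9.50 for glha2 (SE 0.242). Above the ovary the differences were 9.67 for fshb, 9.47 for lhb, 9.91 for glha1 and 9.86 for glha2. Above the liver they were 8.71, 8.33, 8.75 and 8.64 in the same gene order, and 9.74, 9.33, 9.77 and 9.64 by library totals only, a scaling that moved the median over all genes of this difference to 1.17, against 0.24 with TMM. The largest edgeR adjusted p of these 12 comparisons was 1.11e-23, for fshb against the brain. All 4 genes were called in each, where 42% of all genes tested were called between pituitary and brain, 67.3% between pituitary and ovary and 54.6% between pituitary and liver.

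**Figure D1:**
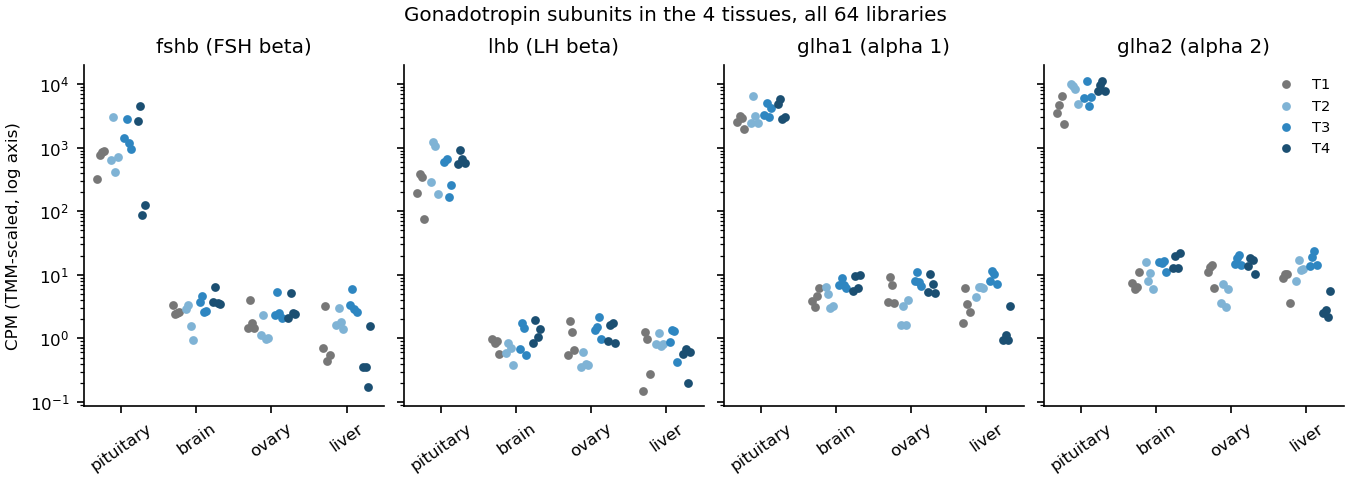
Each point is the level of 1 subunit gene in 1 of the 64 libraries, in CPM on a log axis, scaled within each tissue and shaded by time point (T1 to T4). Every pituitary library lies above every library of brain, ovary and liver for each gene, the closest case being fshb at T4, where 2 pituitary libraries fall to 86.1 and 127 CPM.

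The order of the other 3 tissues was not settled. Mean glha1 levels were 5.97 ± 2.17 CPM in the brain, 5.95 ± 2.90 in the ovary and 5.06 ± 3.30 in the liver (SD, n = 16 each), and mean glha2 levels were 12.4 ± 4.89, 12.1 ± 5.50 and 10.4 ± 6.32 CPM in the same order. In the fit of all 64 libraries the ovary was called lower than the liver for lhb (log2 fold change -1.15), glha1 (-1.16) and glha2 (-1.23), the reverse of the order of these means. That direction depended on the scaling across tissues, a check added after seeing the data. By library totals alone the ovary stood above the liver, by 0.39 for lhb, 0.40 for glha1 and 0.33 for glha2, and the median over all genes of the ovary to liver difference was 1.72, against 0.29 with TMM scaling. No gene of the 4 was called between brain and ovary or between brain and liver. All genes tested were called at 71.4% between brain and ovary, 58.7% between brain and liver and 65.7% between ovary and liver.

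In the pituitary all 4 genes had positive edgeR log2 fold changes at each later time point, and none was called at T2, T3 or T4. The background was low too, since 1.53% of all genes tested were called at T2, 1.06% at T3 and 1.79% at T4. At an unadjusted edgeR p below 0.05 there were 2 of the 4 at T2 (lhb and glha2), 2 at T3 (fshb and glha1) and 3 at T4 (lhb, glha1 and glha2). The same was true of 8331 of all 31997 genes tested at T2, 7390 of 31867 at T3 and 8649 of 32030 at T4. DESeq2 called lhb and glha2 at T4 and none of the 4 at T2 or T3. The edgeR exact test called fshb at T3 and lhb and glha2 at T4. Short of the fold threshold alone, glha2 at T2 had a log2 fold change of 0.94 by both tests. Its adjusted p was 0.0231 by DESeq2 and 0.0463 by the edgeR exact test. glha1 at T4 also passed the p threshold by DESeq2, with a log2 fold change of 0.66 and a DESeq2 adjusted p of 0.0483. The paper reported both gonadotropin beta chains and GLHA2 as upregulated in the pituitary, by edgeR at these thresholds, and GLHA2 at every later time point. It did not name the edgeR test used. Its supplement counted fewer changed pituitary genes at each later time point, far fewer at T2, than the 489, 339 and 572 called here by edgeR. The members' median log2 fold change was 0.86 at T2, 0.73 at T3 and 1.25 at T4, beside medians over all genes of 0.00, -0.01 and 0.01. The same T1 libraries serve in all 3 comparisons.

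**Figure D2:**
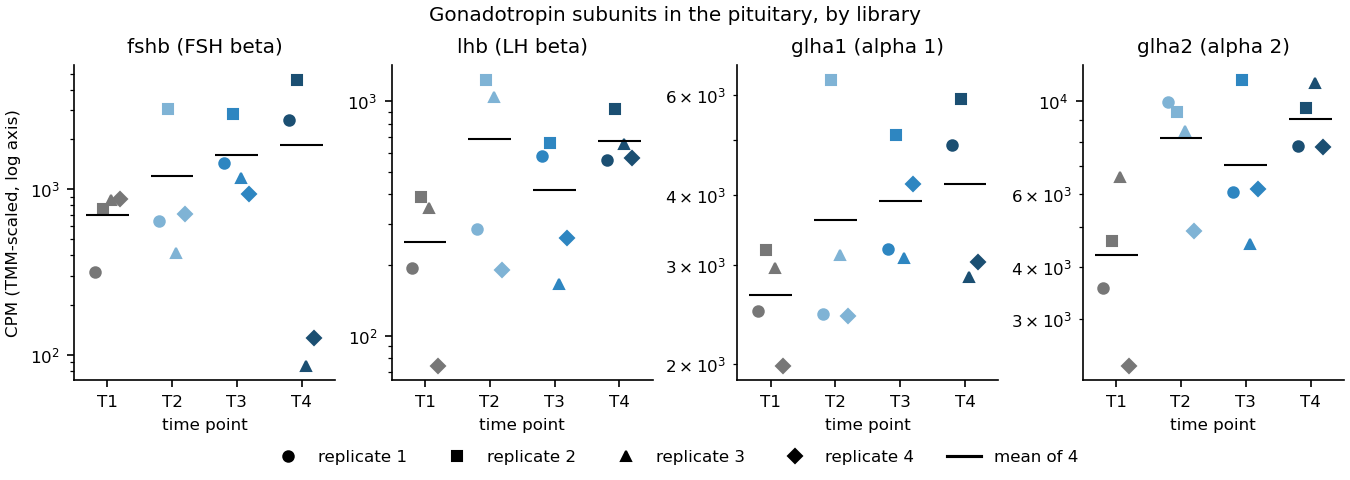
Points give the level of each subunit gene in each pituitary library, in CPM on a log axis, by time point, with the marker showing the replicate number and the bar the mean of 4. The 4 lhb libraries and the 4 glha2 libraries of T4 lie above all 4 of T1, while the T4 libraries of fshb split, with 2 above and 2 below all of T1.

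fshb encodes the beta chain of FSH. Its levels at T1 were 316, 765, 858 and 879 CPM in replicates 1 to 4. At T2 they were 648, 3049, 411 and 714 CPM, so that only replicate 2 lay above T1. At T3 they were 1443, 2857, 1171 and 936 CPM, all above the highest T1 library. The log2 fold change at T3 was 1.19 (SE 0.395, 95% interval 0.31 to 2.06) with an edgeR adjusted p of 0.118. Groups did not overlap in either direction for 12.6% of all genes tested at T3, and 2201 of 31867 genes lay higher at T3 in this way. At T4 the libraries parted, with 2628 and 4599 CPM in replicates 1 and 2 and 86.1 and 127 CPM in replicates 3 and 4. The highest and lowest T4 libraries differed 53.4-fold, against 2.79-fold at T1. The log2 fold change at T4 was 1.41 with an SE of 1.02 (95% interval -0.86 to 3.67, edgeR adjusted p 0.396), and at T2 it was 0.78 (SE 0.599, edgeR adjusted p 0.434). Without replicate 2 of T2 the T2 value was -0.25 (edgeR adjusted p 0.711), so its direction rests on that library. The T4 value was 0.44 without T4 replicate 2 (edgeR adjusted p 0.825) and 0.14 by limma-trend on the deposited log2 values (limma adjusted p 0.946), so its size rests on that library and on the test.

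The 2 T4 libraries low in fshb were also the lowest of T4 in glha1, but not low in lhb or glha2 against T1. Their lhb levels were 658 and 573 CPM, against 561 and 925 CPM in replicates 1 and 2. Their glha2 levels were 11038 and 7762 CPM, against 7807 and 9617 CPM, and lay above all 4 T1 libraries. Their glha1 levels were 2852 and 3035 CPM, against 4896 and 5916 CPM in replicates 1 and 2. Growth hormone, a product of the somatotropes (LOC100136588, listed under the synonym gh), was low in the same libraries, at 3286 and 784 CPM in T4 replicates 3 and 4, against 32346 and 44129 CPM in replicates 1 and 2 and between 10571 and 17249.6 CPM at T1. tshba, the thyrotropin beta chain, stood at 36551 and 22804 CPM in replicates 3 and 4, against 26142 and 19157 CPM in replicates 1 and 2. The part of somatotrope content in the split of fshb was not tested.

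lhb encodes the beta chain of LH. At T1 its levels were 194, 388, 349 and 74.4 CPM. At T2 they were 286, 1237, 1046 and 189.8 CPM, with 2 libraries above all of T1 and 2 within its range. At T3 the levels of 584, 663, 166 and 261 CPM again gave 2 above. At T4 they closed up to 561, 925, 658 and 573 CPM, all 4 above T1, with a 1.65-fold span between highest and lowest against 5.22-fold at T1. The log2 fold change was 1.44 at T4 (SE 0.424, 95% interval 0.50 to 2.39, edgeR adjusted p 0.0704), 0.74 at T3 (SE 0.524, edgeR adjusted p 0.421) and 1.46 at T2 (SE 0.654, edgeR adjusted p 0.192). The T4 value passed the fold threshold and missed the p threshold. The share of all genes whose 4 T4 and 4 T1 libraries did not overlap in either direction was 15.5% (2409 of 32030 genes higher at T4), and 16.2% did not overlap between T2 and T1.

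glha1 and glha2 encode the alpha chains, and salmon carry both copies. glha1 stood at 2486, 3186, 2959.8 and 1989 CPM at T1 and at 2461, 6399.8, 3121 and 2432 CPM at T2. At T3 it was at 3204, 5096, 3083 and 4180.2 CPM and at T4 at 4896, 5916, 2852 and 3035 CPM, with 2 T4 libraries above T1 and 2 within its range. Its log2 fold changes were the smallest of the 4 genes at every time point, at 0.45 (SE 0.346) at T2, 0.55 (SE 0.249) at T3 and 0.66 (SE 0.284) at T4, with edgeR adjusted p of 0.439, 0.214 and 0.169. The T4 interval ran from 0.03 to 1.29.

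glha2 stood at 3560.0, 4608, 6587 and 2320.3 CPM at T1. The T2 levels were 9948, 9419, 8483 and 4879.8 CPM, with 3 of 4 above T1, and the T3 levels 6060.4, 11269.8, 4552 and 6161 CPM, with 1 of 4 above. At T4 the levels were 7807, 9617, 11038 and 7762 CPM, and all 4 were above T1. The log2 fold change was 1.09 at T4 (SE 0.335, 95% interval 0.35 to 1.84, edgeR adjusted p 0.0781), 0.72 at T3 (SE 0.387, edgeR adjusted p 0.291) and 0.94 at T2 (SE 0.384, edgeR adjusted p 0.157). Of the 4 subunit genes, lhb and glha2 at T4, fshb at T3 and 0 at T2 had groups that did not overlap. Over all genes tested, the share that did not overlap in either direction was 15.5% at T4, 12.6% at T3 and 16.2% at T2.

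Taking T2, T3 and T4 as 1 period in a fit of the 16 pituitary libraries gave the same picture. The log2 fold change over T1 was 1.12 for fshb (SE 0.814), 1.21 for lhb (SE 0.518), 0.55 for glha1 (SE 0.283) and 0.91 for glha2 (SE 0.308), with edgeR adjusted p of 0.357, 0.119, 0.190 and 0.0560. None was called by edgeR, where 2.52% of all genes tested were, and 2 of the 4 (lhb and glha2) had an unadjusted edgeR p below 0.05, beside 10885 of all 33459 genes. Without replicate 3 of T1, the T1 library highest in glha2, the glha2 value was 1.20 (edgeR adjusted p 0.0405) and was called. DESeq2 called none of the 4, with glha2 at 0.91 and a DESeq2 adjusted p of 0.00448, short of the fold threshold.

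**Figure D3:**
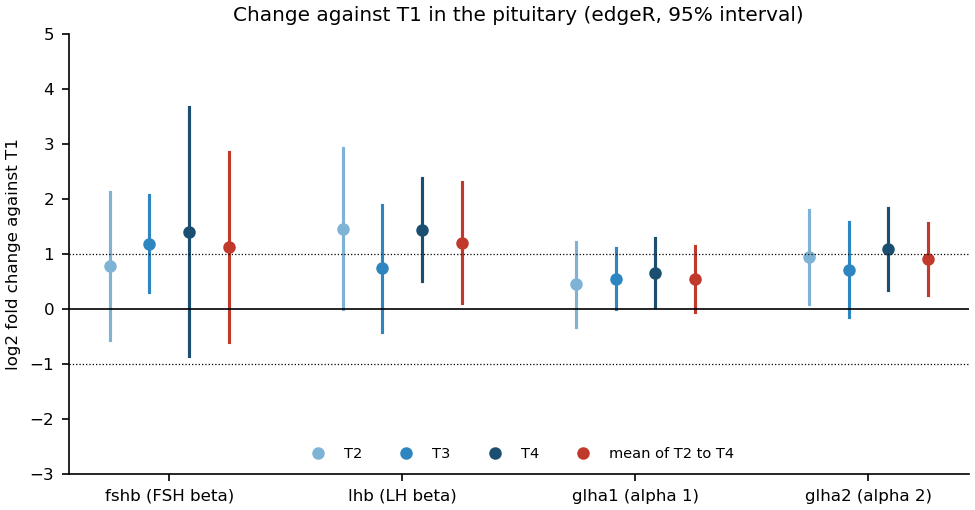
Points are edgeR log2 fold changes against T1 in the pituitary for T2, T3, T4 and their mean, bars are 95% intervals, and dotted lines mark the fold threshold of 1 in either direction. All 16 points lie above 0, and the widest interval is that of fshb at T4, -0.86 to 3.67.

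The balance between subunits was read from ratios of counts within a library, which do not depend on library scaling. The fshb to lhb count ratio was 1.62, 1.97, 2.46 and 11.8 at T1, and 2.27, 2.47, 0.393 and 3.76 at T2. It was 2.47, 4.31, 7.07 and 3.59 at T3, and 4.68, 4.97, 0.131 and 0.221 at T4. Against T1 the mean log2 ratio differed by -0.87 at T2, 0.38 at T3 and -1.78 at T4 (exact permutation p 0.543, 0.571 and 0.343, two-sided, n = 4 each). Leaving out 1 library moved these differences between -1.26 and -0.17 at T2, 0.07 and 1.03 at T3 and -2.59 and -0.85 at T4. At T4 the 4 libraries thus lay on both sides of equality by counts, and the mean describes none of them. The glha1 to glha2 ratio was lower at each later time point by the mean log2 ratio, by -0.65 at T2, -0.19 at T3 and -0.56 at T4 (exact permutation p 0.143, 0.371 and 0.171). The ratio of alpha to gonadotropin beta counts, (glha1 + glha2) to (fshb + lhb), differed by 0.04, -0.36 and 0.04 (exact permutation p 0.943, 0.371 and 1). That ratio leaves out tshba, the thyrotropin beta chain, so it is not the balance of alpha to all beta chains. Over the 9 tests the smallest adjusted p was 0.669, and 0.0286 was the smallest unadjusted p that 4 against 4 libraries can give.

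The subunits varied together between fish in some pairs and not in others. Over the 16 pituitary libraries, on log2 CPM, lhb and glha2 had a Pearson r of 0.83 (Spearman 0.75), lhb and glha1 of 0.71 (0.69), fshb and glha1 of 0.67 (0.74) and glha1 and glha2 of 0.60 (0.43). Adjusted over the 6 pairs, the permutation p of these Pearson values was 0.00078, 0.00591, 0.00948 and 0.0216, and of the Spearman values 0.0048, 0.00848, 0.0048 and 0.152. fshb showed r of 0.17 with lhb (Spearman 0.25) and 0.09 with glha2 (Spearman 0.13), with adjusted permutation p of 0.646 and 0.744 for Pearson and 0.431 and 0.627 for Spearman. On deviations from the time point means, r was 0.74 for lhb and glha2, 0.68 for lhb and glha1 and 0.75 for fshb and glha1 (adjusted permutation p 0.0158, 0.0158 and 0.0184), and 0.48 for glha1 and glha2 (0.103). The Spearman values on these deviations were 0.69, 0.63, 0.69 and 0.36 in the same pair order (adjusted permutation p 0.0313, 0.0313, 0.0644 and 0.286). The 2 low T4 libraries bear on every pair with fshb. Without the 2 libraries farthest from the median of the first gene, which for fshb are these, r was 0.50 for fshb and lhb, 0.51 for fshb and glha2 and 0.83 for fshb and glha1. The other pairs changed less, to 0.69 for lhb and glha2, 0.65 for lhb and glha1 and 0.55 for glha1 and glha2. Each library gives both values of a pair, so the points share depth and dissection.

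**Figure D4:**
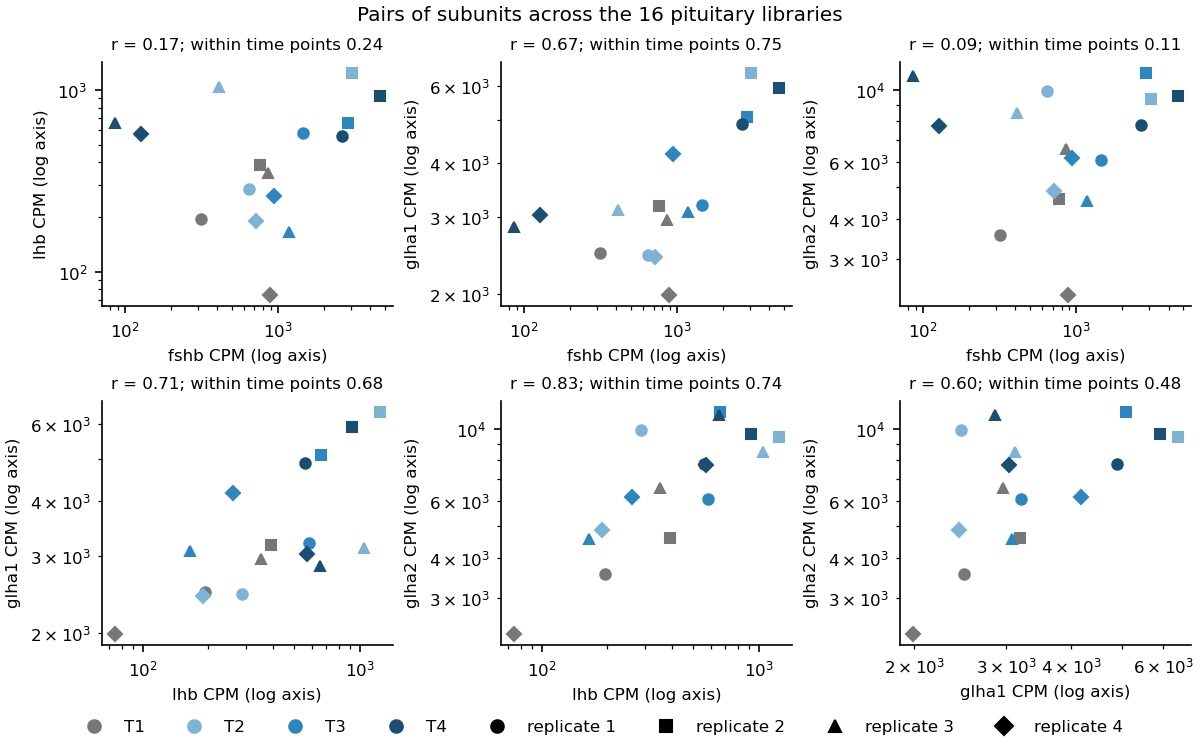
Each panel plots 1 pair of subunit genes across the 16 pituitary libraries, in CPM on log axes, with shading for the time point, markers for the replicate number, and Pearson r over all libraries and within time points. lhb and glha2 lie along 1 diagonal, while in the panels with fshb T4 replicates 3 and 4 stand apart on the left.

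The genes whose pituitary profiles were most like each subunit were found among 33455 genes by Pearson r of log2 CPM over the 16 libraries. For glha2 they were mmp17a, a membrane-bound matrix metalloproteinase (r 0.93), tshba (0.91), LOC106583575 (0.91), gcshb (0.90) and LOC106586697 (0.90). tshba encodes the beta chain of thyrotropin, the other hormone that uses the alpha chain. For fshb they were LOC106606539 (0.92), LOC106607462 (0.91), c7b (0.89), LOC106610800 (0.89) and LOC106605135 (0.88), of which LOC106607462 was abundant, at 1698 to 38357 CPM. For lhb they were LOC106572191 (0.91), LOC106589669 (0.89), LOC106599295 (0.87), LOC106577232 (0.87) and LOC106588894 (0.87). For glha1 they were crip1, which encodes a small LIM-domain protein (0.95), LOC106568731 (0.94), LOC106599265 (0.94), LOC106582919 (0.93) and LOC106607560 (0.93). These are the highest of 33455 values each and carry no test. Some rest on low counts, such as LOC106589669 (0.388 to 1.57 CPM), LOC106577232 (0.0824 to 1.34 CPM) and LOC106605135 (0 to 3.01 CPM).

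Genes that regulate the gonadotropes were taken from a list of transcription factors, receptors and inhibin-family genes. Of 33 symbols sought, 12 genes on 14 rows were found by symbol or synonym. The receptors of gonadotropin-releasing hormone, foxl2, gata2 and isl1 were among those not found, so the counts that follow leave them out. In the pituitary 0 of 9 tested rows were called by edgeR at T2, 1 of 7 at T3 and 1 of 8 at T4, and the called gene was nr5a1b both times. With T2 to T4 taken as 1 period, 2 of 9 tested rows were called, both higher. Of all genes tested, 1.53% were called at T2, 1.06% at T3, 1.79% at T4 and 2.52% over the period. At T2 the unadjusted edgeR p was below 0.05 for 6 of the 9, with log2 fold changes of 0.86 for nr5a1b, 0.90 for esr1, 0.67 for esr2a, 1.83 for pgr, 0.80 for inha and -0.41 for lhx3, beside 8331 of all 31997 genes tested. nr5a1b belongs to the steroidogenic factor 1 family, which in mammals is needed for gonadotropin gene expression. nr5a1b stood at 54.2, 68.5, 39.6 and 42.1 CPM at T4 and at 38.4, 53.6, 39.5 and 51.0 CPM at T3, against 18.1, 24.0, 28.7 and 20.1 CPM at T1. Its log2 fold change was 1.18 at T4 (SE 0.196, edgeR adjusted p 0.0212) and 1.01 at T3 (SE 0.162, edgeR adjusted p 0.0186). The estrogen receptor genes esr1 and esr2a passed the p threshold at T4 with log2 fold changes of 0.80 and 0.92 and were not called. tshba had a log2 fold change of 1.98 at T4 (SE 0.555, edgeR adjusted p 0.0630) and 1.61 over T2 to T4 (SE 0.487, edgeR adjusted p 0.0380), the second called. Of the 5 other pituitary hormones, smtlb (somatolactin) was the 1 called at T4, at -1.58 (SE 0.353, edgeR adjusted p 0.0373).

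On the receiving side, the ovary carried the receptors of both hormones. fshr, the FSH receptor, stood at 11.8 ± 1.17 CPM at T4 and 11.2 ± 1.33 CPM at T1 (SD, n = 4 each). The difference was 0.10 on the log2 scale, with an SE of 0.139 and an edgeR adjusted p of 0.627. lhcgr, the LH receptor, stood at 3.28, 6.06, 2.33 and 9.41 CPM at T4, against 1.29, 1.08, 2.15 and 1.69 CPM at T1. All 4 T4 libraries of lhcgr lay above T1, and it was called at T4, 1.80 higher on the log2 scale with an SE of 0.449 and an edgeR adjusted p of 0.0258. In the ovary 27.3% of all genes tested did not overlap between T4 and T1 in either direction, and 4749 of 31619 lay higher at T4. Of the 7 gonad genes of the list, nr5a1b, lhcgr, cyp17a1 and hsd3b1, of which cyp17a1 and hsd3b1 encode steroidogenic enzymes, were called higher in the ovary at T4, and nr5a1b and hsd3b1 at T3. Over all genes 0.972% were called in the ovary at T2, 3.61% at T3 and 11.1% at T4. The 2 receptors were not tested against each other.

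Markers of other tissues moved in the pituitary libraries as well. Of 6 liver genes 5 were tested, and 4 (alb2, fgg, tfa and apoa1) were called higher at T2, 1 (fgg) at T3 and 0 at T4 by edgeR. Their summed level ran from 147 to 222 CPM at T2, 108 to 115 CPM at T3 and 44.6 to 72.5 CPM at T4, against 53.6 to 84.3 CPM at T1. Of 4 neural genes 3 were tested at T2 and at T4, and mbpa, a myelin gene, was called lower at both. The sum of the 4 ran from 14.9 to 26.1 CPM at T4 against 27.3 to 46.1 CPM at T1. Most of that sum came from elavl4, at 10.9 to 20.1 CPM at T4 and 15.7 to 28.8 CPM at T1. Over all pituitary libraries elavl4 averaged 29.5% of its mean brain level, against 0.316% for snap25a, 0.393% for mbpa and 0.427% for nefl. Of 4 oocyte genes only zpax1 was tested at T3, where it stood at 0.775 to 1.43 CPM and was called lower. Over all genes tested in the pituitary, 1.53% were called at T2, 1.06% at T3 and 1.79% at T4. The part of these shifts in the subunit values was not tested.

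Outside the pituitary each subunit was present at a small fraction of its pituitary level. In percent of the mean pituitary CPM, the means over 16 libraries were 0.235 in the brain, 0.180 in the ovary and 0.140 in the liver for fshb, and 0.189, 0.210 and 0.151 for lhb. For glha1 they were 0.167, 0.166 and 0.141, and for glha2 0.174, 0.169 and 0.146. The 5 other pituitary hormones, prl, gh, smtlb, pomca and tshba, which are products of other pituitary cells, lay in the same band, between 0.113% and 0.206%. The reverse held for liver genes in the pituitary, where alb2, fgg, tfa and apoa1 stood at 0.113%, 0.127%, 0.136% and 0.129% of their mean liver level. The part of reads carried over between libraries or tissues in these values was not tested.

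The levels outside the pituitary differed between time points for the subunits and the other hormones. In the liver at T3, glha1 stood at 8.09, 11.5, 10.5 and 7.23 CPM, against 1.75, 6.16, 3.45 and 2.63 CPM at T1, and was called (log2 fold change 1.39, SE 0.337, edgeR adjusted p 0.0174). glha2 was called there too (1.09, SE 0.311, edgeR adjusted p 0.0347), as were 4 of the 5 other hormones (tshba, gh, smtlb and pomca), where 7.65% of all genes tested were called. At T4 glha2 stood at 2.50, 2.82, 2.13 and 5.60 CPM in the liver, against 8.81, 10.4, 10.4 and 3.55 CPM at T1, and was called lower (-1.35, SE 0.389, edgeR adjusted p 0.0265) together with tshba and pomca, where 11.3% of all genes were called. In the ovary at T2 the 4 subunits had log2 fold changes of -0.64 to -1.30 (edgeR adjusted p 0.0693 to 0.362) and were not called, while smtlb (-2.24) and pomca (-1.95) were called lower. None of the 4 was called in the ovary at T3 or T4, or in the liver at T2, where 15% of all genes were called. In the brain edgeR called 0% of all genes at T2, at T3 and at T4, although 5249, 867 and 1736 of 34964, 34375 and 34267 genes had an unadjusted p below 0.05. Within a time point, 132 to 5820 genes differed over 4-fold between 2 brain libraries, against 32 to 245 between 2 pituitary libraries. The unadjusted edgeR p was below 0.05 in the brain for glha1 and glha2 at T3 and for fshb, glha1 and glha2 at T4, with log2 fold changes of 0.67 to 1.12.

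**Figure D5:**
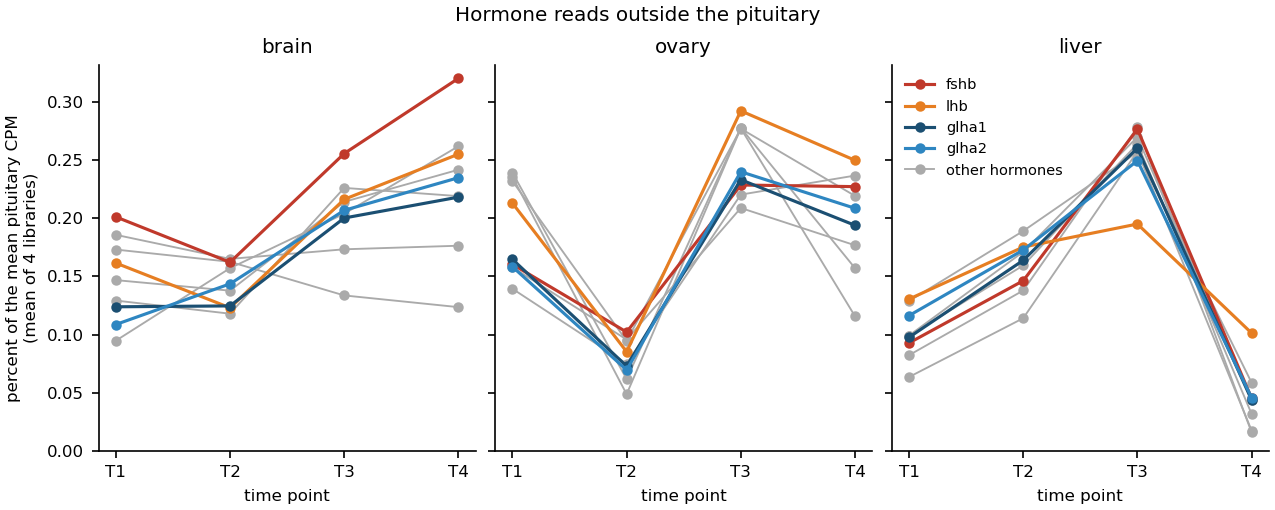
Lines give the mean of 4 libraries at each time point, as a percent of the mean pituitary CPM of the gene, for the 4 subunits (coloured) and for prl, gh, smtlb, pomca and tshba (grey), in brain, ovary and liver. In the ovary all 9 lines dip at T2 and in the liver all 9 are lowest at T4, when the subunits stand between 0.0438% and 0.101%.

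The low pituitary fshb of T4 replicates 3 and 4 was set beside the other tissues of the same numbers. fshb had 2220 and 3533 counts in T4 pituitary replicates 3 and 4, against 65621 and 124980 counts in replicates 1 and 2. In the ovary the same numbers had 66 and 57 counts, against 63 and 146. In the brain they had 79 and 91 counts, against 83 and 122. In the liver they had 6 and 50 counts, against 14 and 14, so that replicate 3 was the lowest and replicate 4 the highest. Across tissues the number 2 was the highest in fshb. Averaged over the 4 time points, replicate 2 had 2818 CPM in the pituitary, 4.24 in the brain, 4.23 in the ovary and 3.18 in the liver, against at most 1258, 3.41, 1.93 and 1.52 CPM for any other number. At T1 alone, replicate 2 was not the highest in the pituitary. This was not particular to fshb. By the same averages lhb, glha1 and gh were highest in replicate 2 in all 4 tissues, and pomca and smtlb in replicate 1. For glha2, prl and tshba no number was highest in all 4 tissues. Whether a number marks the same fish in the 4 tissues is not stated in the labels.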

How the data were processed

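Messenger RNA was sequenced from 4 tissues at 4 time points, 4 libraries each. The authors mapped reads to the ICSASG_v2 genome with TopHat2 version 2.1.1, sorted them with SAMtools 1.4 and counted unique, reverse-stranded reads over exons with HTSeq 0.7.2. The deposited table of raw counts holds 81574 rows, and the authors also deposited normalized values on a log2 scale, which equal log2(CPM + 1) of the counts to within 3.7e-05. Reads shared between near-identical gene copies were dropped by that counting, so glha1 and glha2, salmon paralogs, may each be understated.

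Counts were tested with edgeR 4.0.16 (quasi-likelihood F test, TMM scaling, filterByExpr), with only the 8 libraries compared in each fit. Fits over all 16 pituitary libraries and over all 64 served the period and tissue comparisons. Intervals are 95% and p-values are Benjamini-Hochberg adjusted over all genes tested. Ratios were tested by exact permutation of 4 against 4 libraries, and correlations with 100000 permutations, within time points for deviations. Alternatives were DESeq2 1.42.0, limma 3.58.1 (limma-trend on the deposited log2 values), the edgeR exact test, other scalings, no filter, a replicate block and leaving out each library.

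No 2 libraries of a group agreed within sampling noise. In the closest pair, the median squared difference was 3.20 times that of Poisson sampling. That pair was pituitary T4 replicates 3 and 4, the libraries low in fshb. Replicate numbers gave no consistent pairing of the pituitary libraries across time points. Deviations from the time point means correlated above 0.1 with the same number at T1 in 3 of 4 pairs at T2. The count was 0 at T3 and 2 at T4. Members were chosen by gene number, named in every comparison, and the gene lists, the 5 genes most alike and the members were chosen with earlier results of these data known. A listed gene was named where called in the pituitary or as a cell class marker, and a few other genes (fshr, cyp17a1, esr1) were named after their values were seen. List genes were matched by symbol or synonym only, through a RefSeq gene table, which pairs 54.4% of the gene numbers with a symbol, and hemoglobin genes were not matched. Counts limit precision for levels outside the pituitary, where subunits had between 3 and 576 counts in a library.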

Additional observations from a re-analysis of the deposited data

Results flagged for a closer look

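In groups of 4 libraries, a value was picked out when its gap to the nearest other library exceeded Dixon's 95% critical share of the group's range. Of 64 groups (4 genes in 16 groups) 12 were picked out. The rule picks about 1 in 20 by chance only where values are independent and normally distributed. These were CPM without a log scale, and the 4 genes share libraries, so that rate is no measure here. In the pituitary the 1 such value was fshb at T2 in replicate 2, at 3049 CPM. For fshb, replicate 2 was also the high library in the brain at T4 (6.51 CPM), in the ovary at T1 (3.98 CPM), T2 (2.34 CPM), T3 (5.43 CPM) and T4 (5.17 CPM), and in the liver at T1 (3.29 CPM). lhb was high in replicate 2 of the ovary at T2 (0.621 CPM) and of the liver at T2 (1.19 CPM). In the liver at T4, replicate 4 was high in fshb (1.54 CPM) and glha1 (3.23 CPM), and at T2 replicate 1 was low in glha1 (4.43 CPM).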

How the results depend on the processing

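The higher level of the 4 subunits in the pituitary than in brain, ovary and liver was called under every alternative run. No subunit was called at T2, T3 or T4 or over the period under RLE scaling, all 16 libraries in 1 fit (not run for the period), no filter, or adjusted p alone. Calls came with other tests and scalings. With library totals only, lhb at T4 was 1.70 and glha2 1.33 (edgeR adjusted p 0.0402 and 0.0325), and glha2 over the period was 1.15 (0.0216), but this scaling also moved the median over all genes by 0.21 to 0.25. The limma-trend values on the deposited log2 scale, where that median was 0.17 to 0.19, gave 1.90 for lhb and 1.42 for glha2 at T4 (limma adjusted p 0.0352 and 0.0341). DESeq2 gave 1.44 for lhb and 1.09 for glha2 at T4 (DESeq2 adjusted p 0.0421 and 0.0014). The edgeR exact test gave 1.19 for fshb at T3 and 1.44 for lhb and 1.09 for glha2 at T4 (adjusted p 0.0333, 0.0114 and 0.00456).

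Leaving out 1 library moved fshb at T2 between -0.25 and 1.07, fshb at T4 between 0.44 and 1.80, glha2 over the period between 0.71 and 1.20, the r of fshb and glha2 between -0.00825 (without T3 replicate 2) and 0.33, and the r of glha1 and glha2 between 0.48 and 0.70. The lowest glha1 and glha2 value, without T1 replicate 4, had an adjusted permutation p of 0.108. At T4 all lhb values without 1 library lay between 1.14 and 1.72 and all glha2 values between 0.89 and 1.39, none called.

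The replicate numbers gave no consistent pairing between time points (the correlation of same-numbered libraries' deviations was over 0.1 in 3, 0 and 2 of 4 pairs at T2, T3 and T4). With the replicate block, lhb was 1.30 at T2, 1.65 at T4 and 1.33 over the period (edgeR adjusted p 0.0319, 0.0445 and 0.0398), fshb at T4 was -0.10 (0.977), and all genes called at T3 numbered 76, against 339 without it. The block with the exact sign-flip test changed no ratio call.

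Between brain, ovary and liver the direction followed the scaling, tried without TMM after seeing the data. By library totals only, brain minus liver was 1.00 for fshb, 0.31 for lhb, 0.48 for glha1 and 0.44 for glha2, ovary minus liver 0.60, 0.39, 0.40 and 0.33, and brain minus ovary -0.074 for lhb, each the reverse of the sign under TMM. The count of all genes called in the pituitary differed by more than 1.5 times under DESeq2 (827 at T2, 721 at T3 and 996 at T4), the exact test (903, 819 and 1051), library totals (923, 808 and 1391) and adjusted p alone (1568, 795 and 1792), against 489, 339 and 572. Over the period it was 1603 with library totals and 5019 by adjusted p alone, against 843. Leaving out 1 library gave 98 to 914 called genes at T2, 79 to 925 at T3, 13 to 1363 at T4 and 317 to 1036 over the period, each lowest without T1 replicate 1. Outside the pituitary counts as low as 3 limit precision.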
